A study of Mus musculus with 52 samples.

Results

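The hippocampus and the frontal cortex of mice at postnatal day 30 (P30) were compared in 16 of the 52 libraries of the series, 8 from each region. Each region had 4 libraries from mice labelled miR-146a KO, which lack the microRNA miR-146a, and 4 from wild-type (WT) mice. The libraries were chosen by the region and age in their labels. Genotype entered the comparison as a covariate, so the differences given here are between regions and not between genotypes. The labels give no strain, allele or treatment, and the series text says that animals of a genotype had different mothers. That text speaks of a sensory cortex, whereas each library used here is labelled frontal cortex, the name kept below. Libraries of other mice at postnatal day 60 (P60), 5 from hippocampus (2 KO and 3 WT) and 7 from frontal cortex (4 KO and 3 WT), served as a check. By Xist and Y-linked genes, each region held at P30 3 female and 1 male KO libraries and 1 female and 3 male WT libraries. Within a genotype, libraries with the same number had the same sex in both regions. They may therefore come from the same mouse, which the labels do not state.

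The hippocampus is an older form of cortex with a single main layer of pyramidal cells, divided into the fields CA1, CA2 and CA3, and with the dentate gyrus, whose granule cells go on being born after birth. The frontal cortex is neocortex, with several layers of pyramidal cells that are told apart by transcription factors such as Cux2 in the upper layers and Foxp2 in the deepest layer. Both regions share the same main transmitters and the same glial and vessel cells, and differ in which receptor subunits, channels and adhesion proteins their neurons use.

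Levels are the deposited normalised read counts. Differences are on the scale of log2(level + 1), hippocampus minus frontal cortex, from limma, so that a positive value is higher in hippocampus. This scale understates the differences of genes with low levels. A gene is called where the Benjamini-Hochberg adjusted p is under 0.05 over all genes tested. Depth ran from 2933026 to 7425898 recovered reads in the hippocampal libraries and from 4870435 to 8080536 in those of the frontal cortex, and the lowest was KO hippocampus 3. Mir146, the gene of miR-146a (ENSMUSG00000065601; chromosome 11, 43374397 to 43374461, GRCm38), was listed at 0 in every one of these libraries except WT hippocampus 4, at 0.15. A poly-A library captures few precursors of microRNAs, and the genotype labels cannot be checked from these values. WT hippocampus 3 stood apart: its median correlation with the other hippocampal libraries was 0.9625, against 0.98 or more for the other libraries of both regions. Its summed level of 13 choroid plexus genes was 9990, against 250.3 to 1852.6 in the other hippocampal libraries, and its summed level of 16 myelin genes was 20517.7, against 5268.8 to 14216.7. In the other direction, 14 genes of striatal projection neurons summed to 304.5 to 1467.3 in the frontal cortex libraries and to 183.2 to 253.5 in those of the hippocampus. The part of these genes' tissues in the region differences was not tested, except where values without a library are given.

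Of 18342 genes tested at P30, 7962 (43.4%) were called between the regions. Those higher in hippocampus numbered 3617 (19.7% of genes tested), and those lower numbered 4345 (23.7%). Every P30 count of called list members below is to be set beside these shares. The excess of lower calls depended on the scaling: there were 3929 higher and 4009 lower after rescaling by a trimmed mean of M-values, and 4068 higher and 3984 lower with voom on recovered reads. With a log2 difference of at least 1 there were 1260 called genes (6.87%), 488 higher in hippocampus (2.66%) and 772 lower (4.21%). The hippocampal and cortical libraries did not overlap at all for 3047 of the genes tested (16.6%), called or not. The median log2 difference over all genes tested was -0.0097. With the genes divided by mean level into 4 groups of equal size, the share called was 31.7%, 38.0%, 44.9% and 59.1% from the lowest group to the highest, with median standard errors (SE) of 0.153, 0.119, 0.0788 and 0.0604. The share called with a log2 difference of at least 1 was 7.39%, 7.75%, 5.72% and 6.61% in the same order. Protein-coding genes made up 76.0% of the genes at least 1 log2 unit higher in hippocampus, 73.2% of those at least 1 lower and 76.1% of all genes tested.

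The same contrast at P60 called 6316 of 18656 genes (33.9%), of which 3048 were higher in hippocampus (16.3%) and 3268 lower (17.5%). With a log2 difference of at least 1 there were 1137 (6.09%), 472 higher (2.53%) and 665 lower (3.56%). The regions did not overlap for 3559 of the genes tested at P60 (19.1%), called or not. Of the 488 genes at least 1 log2 unit higher in hippocampus at P30, 472 were tested at P60, 471 had the same direction and 438 (92.8%) were called in it. Of the 772 at least 1 lower, 765 were tested, 763 had the same direction and 676 (88.4%) were called in it. The median difference of these genes was 1.38 at P30 and 1.35 at P60 for the first set and -1.43 and -1.24 for the second. Over all 3617 genes higher at P30, 65.0% of those tested at P60 were called in the same direction, and over all 4345 lower, 61.8%. At P60, both hippocampal libraries numbered 1, KO and WT, had striatal sums of 1748.8 and 2784.7, against 217.1 to 243.4 in the other 3. Dentate gene sums were 944.2 and 941.2, against 1388.5 to 2205.4. CA3 sums were 399.4 and 397.2, against 662.0 to 763.0. Layer 6 sums were higher, 362.8 and 341.8 against 223.6 to 243.6, as were CA1 sums, 655.8 and 713.2 against 256.9 to 509.2. The median correlation with frontal cortex was 0.9687 and 0.9659, against 0.9464 to 0.9502, and with hippocampus 0.9734 and 0.9725. Without the libraries numbered 1, 457 of the 472 genes (96.8%) and 741 of the 765 (96.9%) were called in the P30 direction.

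**Figure D1:**
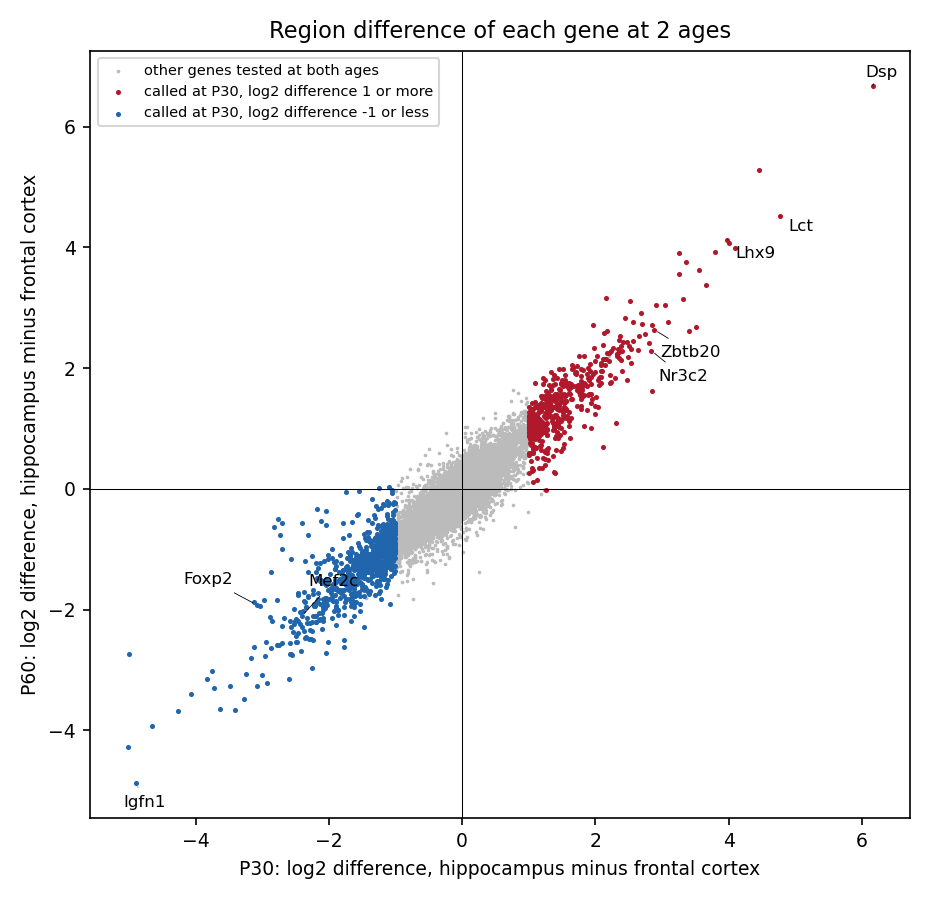
Region difference of each gene tested at both ages, hippocampus minus frontal cortex on the log2(level + 1) scale, at P30 (horizontal axis) and at P60 (vertical axis). Red and blue points are genes called at P30 with a difference of at least 1 in either direction; 471 of 472 and 763 of 765 keep their direction at P60, and Dsp lies farthest from 0 among the labelled genes, at 6.16 at P30 and 6.68 at P60.

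The regional pattern was also read in each genotype alone. Of 493 genes at least 1 log2 unit higher in hippocampus and called in the KO libraries, 458 were tested in the WT libraries, and 458 of these had the same direction there. Of 796 lower in the KO libraries, 769 were tested in the WT libraries and 769 had the same direction. No gene tested for a different regional contrast in KO and WT was called (0 of 18342, 0.0%, limma, smallest adjusted p 0.861). Of these 18342 genes 884 had an unadjusted p under 0.05. Without WT hippocampus 1, 21 genes were called, and 0 without any other single library.

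Dsp, which encodes desmoplakin, a protein of desmosomes that is used as a marker of dentate granule cells, had the largest difference of the named genes in favour of the hippocampus (ENSMUSG00000054889; chromosome 13, 38151294 to 38198577, GRCm38). Its level ran from 66.0 to 225.8 in the hippocampal libraries with a median of 131.5, and from 0.2 to 3.61 in the frontal cortex libraries with a median of 0.485. The regions did not overlap, and the highest cortical library was KO frontal cortex 2. The means were 131.6 ± 52.9 and 0.914 ± 1.14 (SD, n = 8 each), a ratio of 144.0, with a log2 difference of 6.16 (SE 0.29, adjusted p = 1.75e-10) at P30 and 6.68 at P60. The next 3 genes in this order were Lct, the intestinal lactase gene that granule cells also express, at 4.77, C1ql2, a secreted C1q-like protein of mossy fibre synapses, at 4.45, and Cabp7, a calcium-binding protein, at 4.1 (adjusted p 3.85e-12, 7.61e-13 and 6.74e-16). C1ql2 ran from 16 to 66.6 in hippocampus and from 0.2 to 1.12 in frontal cortex. Of the 12 genes with the largest differences on this side, among those called without overlap and with a mean of 5 or more in the higher region, the others were Tspan18 (4.0), Lhx9 (3.98), Npy2r (3.8), Il16 (3.66), Shisa6 (3.55), Iyd (3.51), Cd109 (3.41) and Prox1 (3.36). Shisa6 encodes an auxiliary subunit of AMPA receptors, Il16 a cytokine precursor with a neuronal form, and Iyd an iodotyrosine deiodinase. Every one of the 12 was called at P60 in the same direction, with differences between 2.61 and 6.68.

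On the cortical side, Igfn1, a muscle-type immunoglobulin and fibronectin repeat protein, ran from 0.0 to 5.13 in hippocampus with a median of 0.075 and from 29.6 to 49.5 in frontal cortex with a median of 43.1. Its highest hippocampal library was WT hippocampus 3, and the regions did not overlap. The log2 difference was -4.89 (SE 0.302, adjusted p = 1.94e-09), and -4.87 at P60. Cobl, an actin nucleator, was at -4.07, with 8.77 to 18.6 in hippocampus and 192.1 to 264.1 in frontal cortex. Other genes with large differences on this side, by the same rule, were Col24a1 (-3.83), a fibrillar collagen, Rasgef1c (-3.75), Xirp2 (-3.64), an actin-binding protein of muscle, Hs3st2 (-3.48), a heparan sulphate sulphotransferase, Dkkl1 (-3.41), Adam33 (-3.28), a metalloprotease, Sowahb (-3.25), Myl4 (-3.17), an embryonic myosin light chain, and Oprk1 (-3.12), the kappa opioid receptor. Except for Oprk1, the genes named here were called at P60 in the same direction; Oprk1 was at -1.88 there (adjusted p = 0.0873), and at -3.12 (adjusted p = 0.00233) without the libraries numbered 1.

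In the amygdala libraries of the same age, measured in the same table, some of these genes sat near one region and others between them, and Igfn1 reached above both. Dsp had a median of 0.55 there and a highest value of 2.67, and Xirp2 a median of 0.63 and a highest value of 2.24. Lhx9 had a median of 17.6 and a range of 0.86 to 28.7, and Cobl a median of 130.6 and a range of 119.0 to 181.9. Igfn1 spread from 7.71 to 109.8.

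Promoter sequence is shown for 4 genes that differ strongly, with few reads in the low region: Il16 and Iyd, high in hippocampus, and Xirp2 and Hs3st2, high in frontal cortex. Il16 ran from 36.6 to 62.2 in hippocampus with a median of 54.6, and from 2.2 to 4.2 in frontal cortex with a median of 2.98. Iyd ran from 10.7 to 16.8 with a median of 15, against 0.0 to 0.85 with a median of 0.32. Neither gene overlapped between the regions. Xirp2 ran from 0.0 to 0.58 in hippocampus with a median of 0.225, and from 10.2 to 18.8 in frontal cortex with a median of 15.5. Hs3st2 ran from 0.71 to 13.5 with a median of 2.2, against 32.7 to 47.6 with a median of 40.5, again without overlap. The 4 were chosen after their values and motif matches were seen. Each sequence is the 250 bases before a RefSeq transcription start, read 5′ to 3′ on the strand of the gene, build GRCm38.p6, with motif matches in capitals. They lie at chr7:83735540-83735789 on the minus strand (Il16, the first of the starts listed for this gene), chr10:3540024-3540273 on the plus strand (Iyd), chr2:67445752-67446001 on the plus strand (Xirp2) and chr7:121392046-121392295 on the plus strand (Hs3st2).
Il16: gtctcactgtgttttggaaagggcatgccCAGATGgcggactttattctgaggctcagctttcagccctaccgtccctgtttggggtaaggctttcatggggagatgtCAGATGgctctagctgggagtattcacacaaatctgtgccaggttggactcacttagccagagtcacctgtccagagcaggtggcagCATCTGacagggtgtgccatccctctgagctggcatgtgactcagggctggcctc
Iyd: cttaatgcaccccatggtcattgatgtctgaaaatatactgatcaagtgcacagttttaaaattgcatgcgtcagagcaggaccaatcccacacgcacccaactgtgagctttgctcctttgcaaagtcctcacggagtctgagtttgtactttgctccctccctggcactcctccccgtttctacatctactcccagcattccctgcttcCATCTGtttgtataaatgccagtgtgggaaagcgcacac
Xirp2: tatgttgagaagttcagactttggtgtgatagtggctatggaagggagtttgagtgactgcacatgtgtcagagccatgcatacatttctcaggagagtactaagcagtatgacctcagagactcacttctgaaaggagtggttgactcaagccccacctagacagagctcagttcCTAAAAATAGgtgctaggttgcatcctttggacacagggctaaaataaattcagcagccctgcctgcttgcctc
Hs3st2: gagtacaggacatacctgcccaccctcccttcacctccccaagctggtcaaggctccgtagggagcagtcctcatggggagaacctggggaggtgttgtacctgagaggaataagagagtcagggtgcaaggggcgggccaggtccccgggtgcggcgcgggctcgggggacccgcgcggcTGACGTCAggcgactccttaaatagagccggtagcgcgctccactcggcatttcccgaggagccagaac

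The capitals mark, in Il16 and Iyd, the E-box bound by the NeuroD family (CAGATG, or CATCTG on the other strand), in Xirp2 a MEF2 site (CTA and TAG with any 4 bases between them) and in Hs3st2 a cyclic AMP response element (TGACGTCA). The Il16 window shown has 3 E-box matches, the nearest 55 bases before the start; of the other starts listed for Il16, one window has 1 match and one has 0. Iyd has 1, at 39 bases. Both strands were searched over 250 bases. The E-box was present in 19.2% of the genes at least 1 log2 unit higher in hippocampus that have a promoter in the table (56 of 291), and in 17.0% of those lower (78 of 458). It was present in 12.4% of all tested genes with a promoter and in 16.3% of all 27025 genes with a promoter, tested or not. A gene with several starts counted once, as a match if any of its windows matched. The MEF2 site was present in 2.75%, 3.71%, 3.4% and 3.7% of the same 4 sets, and the cyclic AMP response element in 1.03%, 2.4%, 2.91% and 1.77%. The corticosteroid receptor element (GNACA and TGTNC with any 3 bases between them) was present in 1.03%, 0.437%, 0.367% and 0.44%, and the EGR site (GCGNGGGCG) in 9.28%, 10.9%, 10.3% and 5.33%. A match describes the letters of this window and not a bound site.

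Transcription factors of the forebrain split between the regions. Of 48 tested, 13 were higher in hippocampus, 22 lower and 13 not called, against 19.7% higher and 23.7% lower over all genes tested, with a median of -0.151. Zbtb20, a zinc finger repressor required for hippocampal CA1 identity, ran from 2358.0 to 3911.0 in hippocampus with a median of 3179.3, and from 399.6 to 465.9 in frontal cortex with a median of 432.5. The regions did not overlap, and the log2 difference was 2.88 (SE 0.0847, adjusted p = 6.74e-16). Prox1, the homeobox factor of granule cells, ran from 236.4 to 518.8 with a median of 312.6, against 25.8 to 39.4 with a median of 31.6 (3.36, SE 0.164). Lhx9, a LIM homeobox factor, ran from 15.8 to 31.9 against 0.13 to 1.77 (3.98, SE 0.198). Neither overlapped. The bHLH factors of neuronal differentiation Neurod6, Neurod1 and Neurod2 were higher by 1.88, 1.51 and 1.26, and Nfib and Zeb2 by 1.25 and 1.11. On the cortical side, Mef2c, a MADS-box factor that limits excitatory synapse number, ran from 138.5 to 248.2 against 939.3 to 1146.6 without overlap (-2.41, SE 0.0949). Its relatives Mef2a and Mef2d were at 0.36 and -0.24, so the family members differed in opposite directions. Tshz3 (-2.46), Meis2 (-1.84), Pou3f2 (-1.62), Tbr1 (-1.43), Sox5 (-1.19), Satb1 (-1.11) and Foxp1 (-1.1) were lower in hippocampus as well.

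**Figure D2:**
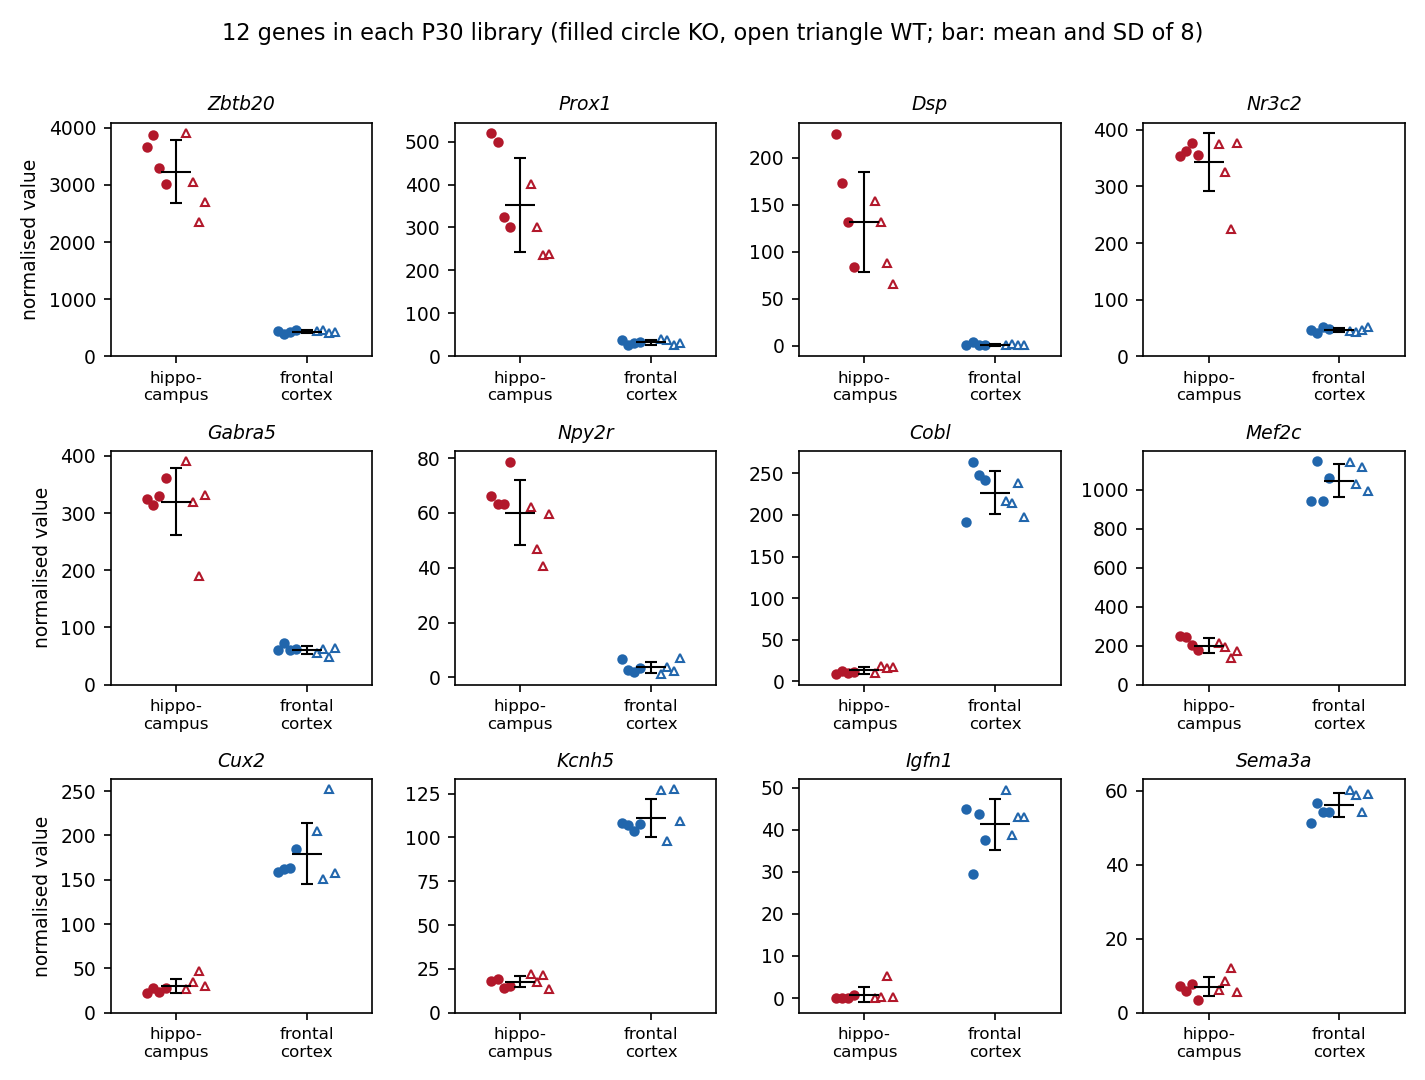
Level of 12 genes in each of the 16 libraries at P30, with filled circles for KO and open triangles for WT, and a bar for the mean and SD of the 8 libraries of a region. In none of the 12 panels do the regions overlap; Zbtb20 lies between 2358.0 and 3911.0 in hippocampus and between 399.6 and 465.9 in frontal cortex.

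Markers of the hippocampal fields were mostly higher in hippocampus. Of 12 dentate granule cell genes 10 were higher and none lower, with a median of 1.78 (1.95 at P60); the other two, Plk5 (0.2) and Npnt (-0.02), were not called. Of 10 CA3 genes 8 were higher, with a median of 0.832, led by Iyd and by Cpne4 (1.6), a copine, and Grik4 (1.51), a kainate receptor subunit of mossy fibre synapses; Coch was lower, at -2.04. Of 8 CA2 genes 7 were higher, with a median of 1.21, among them Amigo2 (2.05), Stard5 (1.71) and Cacng5 (1.43). Pcp4, used as a CA2 marker and also expressed in cortical layers, was lower in hippocampus (-0.69, adjusted p = 0.0003), and at 0.05 (adjusted p = 0.886) at P60. Of 10 CA1 genes 5 were higher and 3 lower, with a median of 0.563. Fibcd1, a chitin-binding membrane protein, was at 2.69, Gpr161, a ciliary receptor, at 2.08, and Lefty1, a secreted Nodal antagonist, at 1.84, while Ccn3 (-1.59), Mpped1 (-1.03) and Zdhhc2 (-0.48) were lower. Why the last 3 were lower was not tested. In these tissue samples, fewer cells of a type and less RNA per cell cannot be told apart.

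The hippocampal libraries differed in the balance of these fields. The summed level of the dentate list ran from 1005.2 in WT hippocampus 4 to 1972.2 in KO hippocampus 2, that of the CA1 list from 315.5 in WT hippocampus 3 to 850.3 in WT hippocampus 4, and that of the CA3 list from 467.8 in WT hippocampus 2 to 780.4 in KO hippocampus 4. The library lowest in dentate genes was thus the highest in CA1 genes. In frontal cortex the same lists ran over narrower ranges, 341.0 to 432.1, 415.8 to 454.5 and 307.3 to 368.5. The dentate and CA3 sums did not overlap between regions, and the CA1 sum did, with KO hippocampus 1 (388.6), KO hippocampus 2 (414.4) and WT hippocampus 3 below the lowest cortical library. Fibcd1 alone ran from 11.5 to 112.3 over the 8 hippocampal libraries, against 3.74 to 6.96 in frontal cortex.

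**Figure D3:**
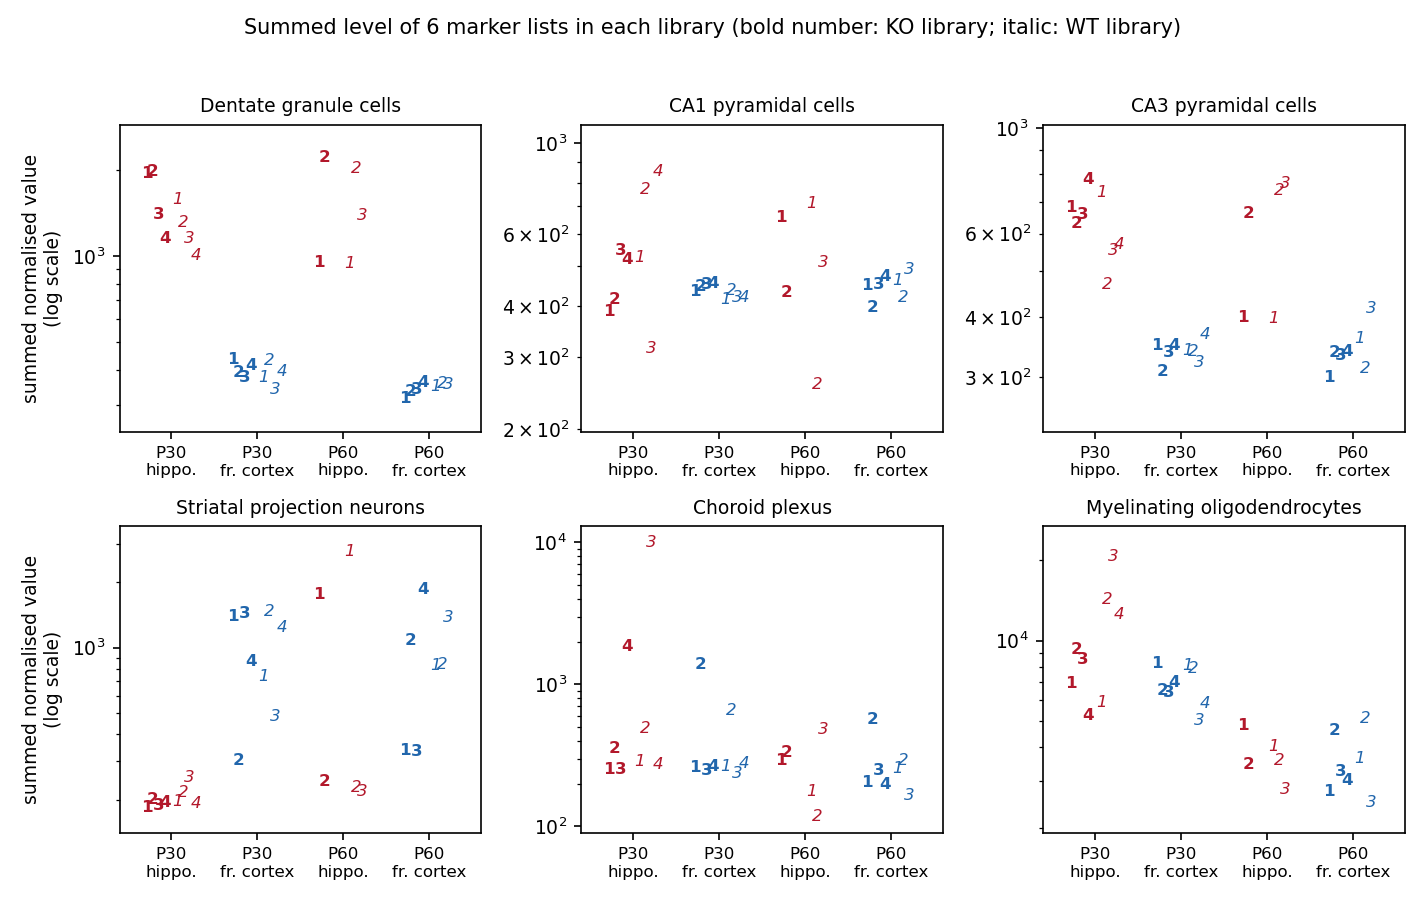
Summed level, on a log axis, of the lists for dentate granule cells, CA1, CA3, striatal projection neurons, choroid plexus and myelin in each library at P30 and P60 (bold numbers KO, italic numbers WT). Hippocampus lies above frontal cortex for the dentate list in all libraries, WT hippocampus 3 stands out for choroid plexus (9990) and myelin (20517.7), and both P60 hippocampal libraries numbered 1 stand out for the striatal list (1748.8 and 2784.7).

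Genes of adult neurogenesis were mostly higher in hippocampus: 9 of 11 were higher and 2 lower, with a median of 1.34. Eomes, the T-box factor of intermediate progenitors, ran from 1.78 to 12.2 with a median of 3.24 in hippocampus and from 0.0 to 0.61 with a median of 0.235 in frontal cortex (1.83, SE 0.234, adjusted p = 2.28e-06). Igfbpl1 (2.85), Draxin (1.99), a guidance protein, and Neurod1 (1.51) were higher, as were the cycling marker Mki67 (1.36) and Sox11 (0.87). Dcx, a microtubule protein of migrating young neurons, was lower in hippocampus (-0.42, SE 0.0853, adjusted p = 0.000411), as was Sox4 (-0.29). The Dcx means were 70.6 ± 9.43 and 95.0 ± 12.1 (SD, n = 8 each), and the difference at P60 was -0.71 (adjusted p = 0.00905).

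Markers of cortical layers were mostly higher in frontal cortex. Of 10 upper-layer genes 9 were lower in hippocampus, with a median of -1.60, and their summed level ran from 1140.4 to 1514.3 in frontal cortex and from 403.0 to 535.4 in hippocampus. Lamp5 (-2.86), a membrane protein of upper-layer and neurogliaform cells, Otof (-2.78), Cux2 (-2.56), Rspo1 (-2.34), Cux1 (-1.66) and Rorb (-1.54), the layer 4 nuclear receptor, were the largest. Cux2 ran from 22.8 to 47.5 in hippocampus and from 150.4 to 251.9 in frontal cortex. Scnn1a, a sodium channel subunit, was higher in hippocampus (0.43, adjusted p = 0.0196). Of 10 layer 6 genes 7 were lower, with a median of -1.69. Foxp2 ran from 2.03 to 15.8 in hippocampus and from 31.1 to 60.6 in frontal cortex (-3.08, SE 0.309), and Cplx3 (-2.97) and Ccn2 (-2.46), markers of the subplate remnant, were lower too. Crym, a thyroid hormone binding protein, was higher in hippocampus (1.2, adjusted p = 0.00288). Layer 5 genes had no single direction: 3 of 10 were higher, 4 lower and 3 not called. Bcl6 (1.14), Hsd11b1 (1.01) and Bcl11b (0.91) were higher, and Ldb2 (-1.67), Qrfpr (-1.32), Vat1l (-1.26) and Deptor (-1.16) lower. Fezf2, the factor that specifies subcerebral neurons, was at -0.01 and not called. The Vat1l call (adjusted p = 0.0373) was lost on leaving out any of 13 single libraries, with differences of -1.28 to -1.13 and adjusted p values of 0.052 to 0.0721.

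Interneuron genes were lower in hippocampus more often than higher, at 8 and 2 of 16, with a median of -0.285. Vip, the peptide of a disinhibitory class, was at -1.97, Npy at -1.11, Pvalb at -1.0, Slc32a1, the vesicular GABA transporter, at -0.65, and Sst at -0.62. Adarb2 (0.84) and Htr3a (0.69) were higher. Gad2 (-0.18) and Lhx6 (-0.32) were not called. Npy ran from 8.98 to 32.1 in hippocampus and from 43.3 to 63.1 in frontal cortex at P30, and at P60 from 28.0 to 54.5 and from 38.0 to 54.0, where it was not called (-0.27, adjusted p = 0.157). The difference between the ages was not tested.

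**Figure D4:**
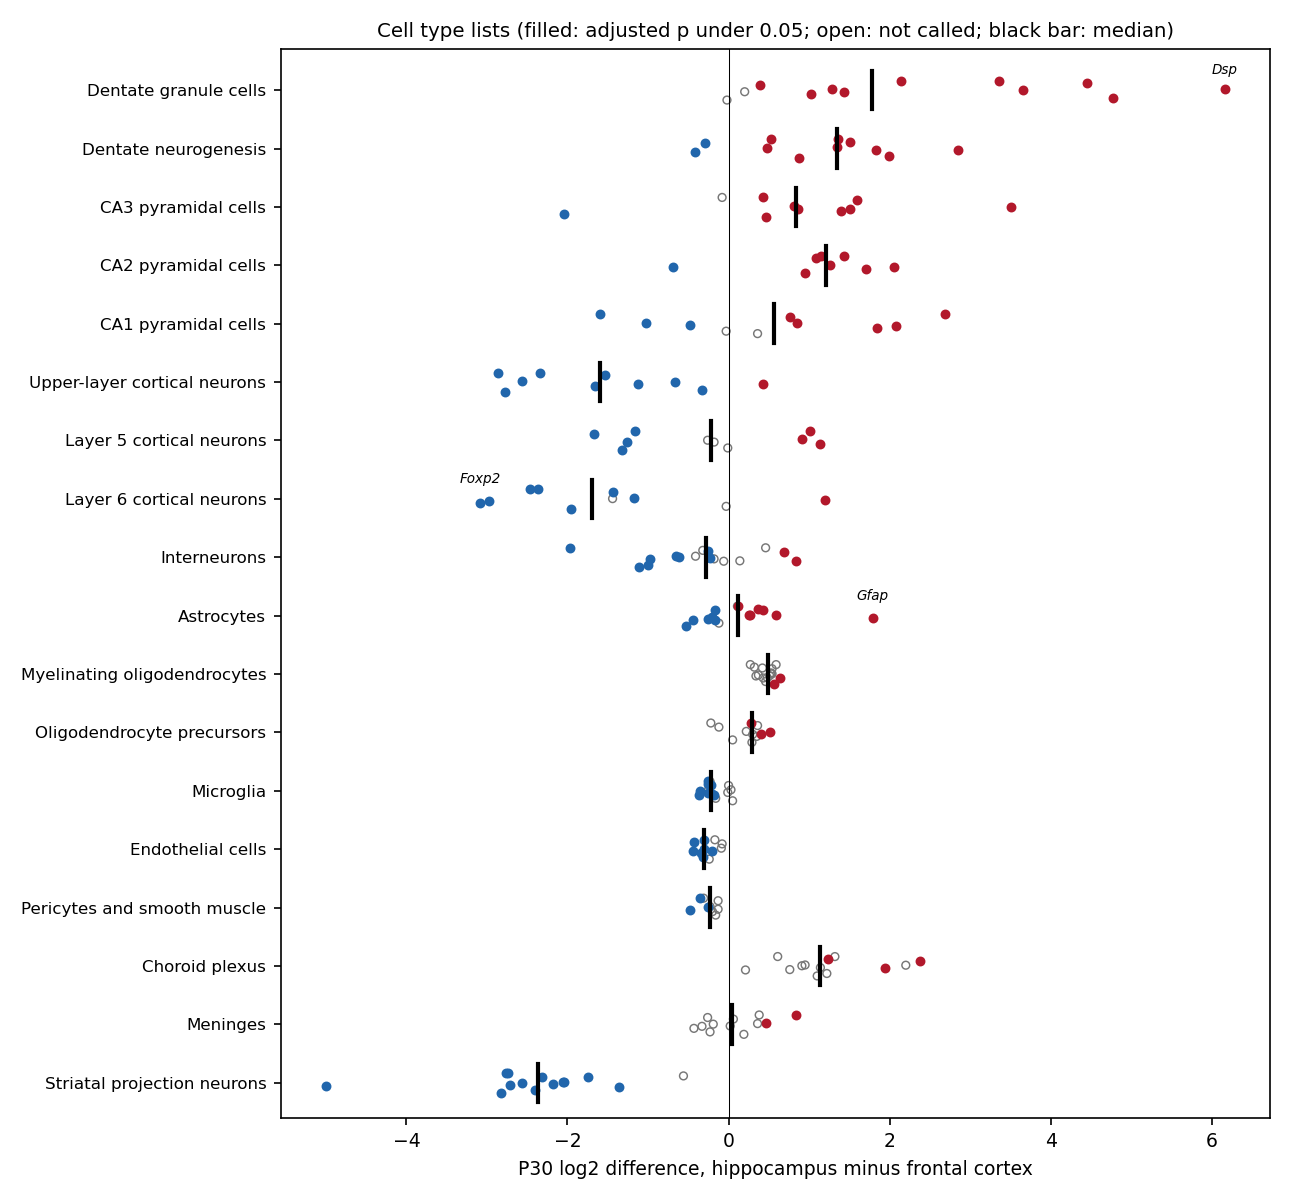
P30 region difference of each gene of 18 marker lists, one row per list, on the log2(level + 1) scale, with filled points for called genes, open points for others and a black bar for the list median. The dentate list (median 1.78) lies to the right, and the upper-layer (-1.60), layer 6 (-1.69) and striatal (-2.36) lists lie to the left.

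Every one of the 12 GABA-A receptor subunits tested was called, 4 higher and 8 lower in hippocampus. Gabra5, the alpha subunit of extrasynaptic receptors of pyramidal cells, ran from 189.4 to 391.2 in hippocampus with a median of 327.0, and from 48.9 to 72.2 in frontal cortex with a median of 61.5. The regions did not overlap, and the log2 difference was 2.36 (SE 0.11, adjusted p = 1.04e-11). Gabra2 was higher by 1.01, and the beta subunit Gabrb1 by 0.62. Gabra3 went the other way, with 11.7 to 41.5 in hippocampus against 99.8 to 134.8 (-2.46, SE 0.194), and so did Gabrb2 (-0.73) and Gabrg3 (-0.99). Gabrd, the delta subunit that granule cells are known to use, was lower in hippocampus (-1.84, SE 0.135), with means of 8.7 ± 2.65 and 32.6 ± 2.47 (SD, n = 8 each).

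Ionotropic glutamate receptors were evenly split, with 6 of 17 higher and 6 lower. Gria1, an AMPA receptor subunit, ran from 693.6 to 1132.4 in hippocampus and from 256.4 to 336.4 in frontal cortex (1.76, SE 0.0841), Grik4 was at 1.51 and Grin2a, an NMDA receptor subunit, at 0.72. Gria4 (-1.55) and Grik3 (-1.55) were lower. The NMDA receptor subunit Grin1, which all such receptors need, was at -0.17 and not called. Of 7 metabotropic receptors, Grm5 (0.33), which couples to Gq, was higher, and Grm8 (-2.22), Grm4 (-1.63) and Grm3 (-1.5), which couple to Gi, were lower.

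Among 42 voltage-gated potassium and HCN channel genes, 24 were lower in hippocampus and 8 higher, against 23.7% and 19.7% over all genes tested, with a median of -0.413. The share higher was near that of all genes. The Kcnh family, which encodes the EAG, ERG and ELK channels, was lower in hippocampus for every member in the list: Kcnh4 (-3.04), Kcnh5 (-2.59), Kcnh7 (-1.78), Kcnh3 (-1.72), Kcnh1 (-1.03) and Kcnh2 (-0.55). Kcnh5 ran from 13.4 to 22.0 in hippocampus with a median of 18, and from 97.9 to 127.4 in frontal cortex with a median of 108.1. Kcnv1 (-1.69), Kcnab3 (-1.66), Kcnf1 (-1.49) and Kcns1 (-1.47) were lower. Kcng2, a modifier subunit, was higher by 2.33, with 12.6 to 23.2 against 1.08 to 3.81. HCN channels, which carry the pacemaker current, were lower for Hcn2 (-0.51), Hcn3 (-0.62) and Hcn4 (-0.91). Of 29 calcium and sodium channel genes 18 were lower and 8 higher. The T-type calcium channels went apart: Cacna1h was at 1.54, and Cacna1i and Cacna1g were at -1.91 and -1.37. Among sodium channel beta subunits Scn3b was at 1.91 and Scn4b at -2.87. At P60 no gene of this list was below -1.39. Without the P60 hippocampal libraries numbered 1, which had high striatal sums, Scn4b was at -2.87 there. The part of striatal tissue in the Scn4b difference was not tested. Among alpha subunits Scn1a was at -1.03, while Scn8a (0.03) and Scn2a (-0.13) were not called.

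**Figure D5:**
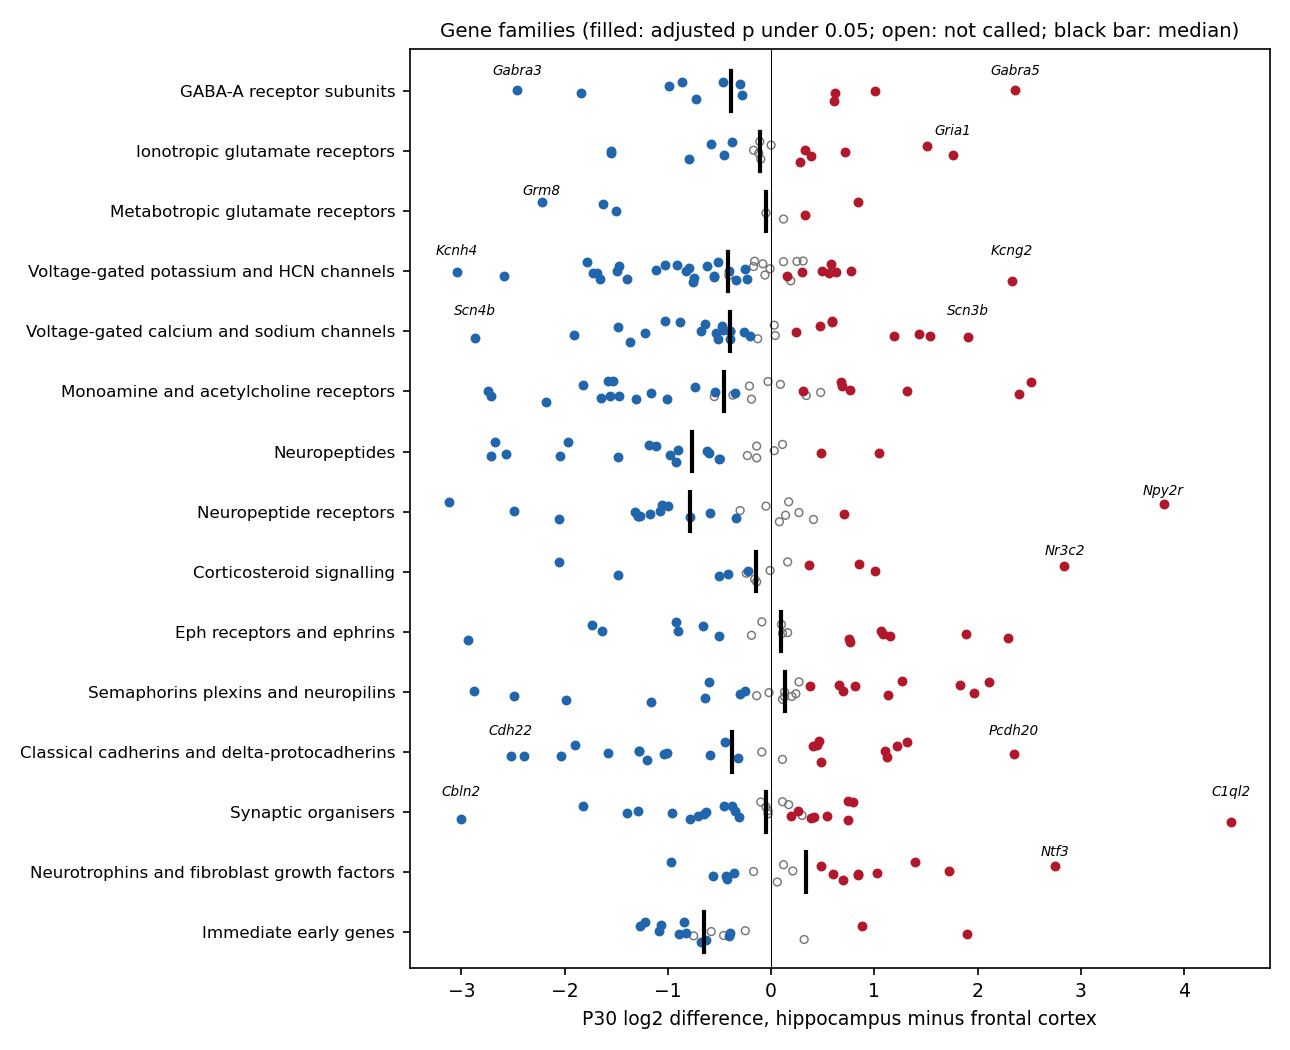
P30 region difference of each gene of 15 receptor, channel, peptide, adhesion and signalling families, one row per family, drawn as in the plot of marker lists. The potassium channel (median -0.413), neuropeptide (-0.762) and neuropeptide receptor (-0.786) medians lie to the left of 0, and single genes such as Npy2r (3.8) and C1ql2 (4.45) lie far to the right.

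Of 30 monoamine and acetylcholine receptors 15 were lower in hippocampus and 7 higher, with a median of -0.454. The serotonin receptors Htr4 (2.52), Htr5b (1.32), Htr3a (0.69) and Htr1a (0.68) were higher, and Htr2a (-1.82), Htr1d (-1.58), Htr5a (-1.31), Htr1f (-1.01) and Htr1b (-0.74) lower. The dopamine receptor Drd5 ran from 2.99 to 9.18 in hippocampus and from 0.0 to 0.82 in frontal cortex (2.4, SE 0.169, adjusted p = 2.51e-10), and Drd1 and Drd2, which striatal neurons express strongly, were at -2.74 and -2.18. The adrenergic receptors Adra1b (-2.71), Adra1a (-1.53) and Adrb1 (-1.47) and the muscarinic receptors Chrm4 (-1.65) and Chrm2 (-1.56) were lower. Chrm1 (0.31) and the nicotinic subunit Chrna7 (0.76) were higher, and the nicotinic subunit Chrna4 lower (-1.16).

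Neuropeptides and their receptors were mostly lower in hippocampus. Of 22 neuropeptide and secretory genes 14 were lower and 2 higher, with a median of -0.762, and of 23 receptors 14 were lower and 2 higher, with a median of -0.786, against 23.7% lower and 19.7% higher over all genes tested. Adcyap1, the PACAP precursor (-2.67), Nxph3, a neurexin ligand (-2.57), Vip (-1.97) and Crh (-1.48) were lower. Penk (-2.71) and Tac1 (-2.04) are also on the striatal list. Chgb, a granin, was higher (1.04), with means of 1111.9 ± 256.0 and 530.5 ± 54.2 (SD, n = 8 each). Npy2r, the presynaptic neuropeptide Y receptor of mossy fibres and Schaffer collaterals, ran from 40.6 to 78.7 in hippocampus with a median of 62.7, and from 1.24 to 6.93 in frontal cortex with a median of 3.1. The regions did not overlap (3.8, SE 0.23, adjusted p = 1.6e-09). Npy5r was higher too (0.71), and Npy1r was not called (0.27). Cckbr, a cholecystokinin receptor, ran from 7.39 to 14.8 against 49.6 to 78.3 (-2.49, SE 0.136), while its ligand Cck was at 0.03 and not called. The opioid receptors Oprk1 (-3.12), Oprd1 (-1.29), Oprm1 (-1.08) and Oprl1 (-0.59) were all lower, as were Crhr1 (-2.05), Sstr1 (-1.29), Ntsr1 (-1.27) and Vipr1 (-1.06). Without WT hippocampus 3 the receptor list had 4 higher members.

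The corticosteroid receptors differed in opposite directions. Nr3c2, the mineralocorticoid receptor, ran from 224.9 to 377.0 in hippocampus with a median of 358.7, and from 41.0 to 52.5 in frontal cortex with a median of 46.9 (ENSMUSG00000031618; chromosome 8, 76899442 to 77245012, GRCm38). The regions did not overlap, and the log2 difference was 2.84 (SE 0.0876, adjusted p = 5.12e-15), a ratio of means of 7.33. Nr3c1, the glucocorticoid receptor, was lower by a smaller amount (-0.42). Fkbp5, a chaperone induced by glucocorticoids, was higher (0.85), as was Hsd11b1, which reactivates corticosterone (1.01), while Per1 (-0.5) and Klf9 (-0.22), which glucocorticoids also induce, were lower, and Sgk1 (0.16) and Tsc22d3 (-0.14) were not called. Of the 14 genes of this list 4 were higher and 5 lower, against 19.7% and 23.7% over all genes tested.

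Axon guidance genes went in both directions. Of 19 Eph receptors and ephrins 7 were higher and 7 lower. Epha6 (2.29), Epha7 (1.89), Epha4 (1.15), Epha3 (1.08) and Epha5 (1.06) were higher in hippocampus, and Efna5, a ligand of these receptors, was lower (-2.94, SE 0.183), with means of 5.73 ± 3.4 and 47.0 ± 5.56 (SD, n = 8 each). Ephb6 (-1.73) and Efnb2 (-1.64) were lower. Of 25 semaphorins, plexins and neuropilins 9 were higher and 8 lower. Both neuropilins were higher, Nrp1 with 168.2 to 257.6 against 46.9 to 71.5 (1.96, SE 0.0729) and Nrp2 at 1.83, while Sema3a, a ligand of Nrp1, ran from 3.48 to 12 against 51.4 to 60.3 (-2.88, SE 0.141) and Sema3f, a ligand of Nrp2, was at -1.99. Sema5a (2.11), Sema3e (1.27) and Plxna4 (1.13) were higher, and Plxnd1, the receptor of Sema3e, was lower (-2.49).

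Cadherins and protocadherins were called in 22 of 24 cases, 9 higher and 13 lower. Pcdh20 (2.35), Cdh9 (1.32), which CA3 synapses use, Pcdh8 (1.22), Pcdh19 (1.12) and Cdh8 (1.1) were higher. Cdh22 (-2.52), Cdh7 (-2.39), Cdh18 (-2.03), Cdh6 (-1.9) and Pcdh7 (-1.58) were lower. Cdh2, the broadly expressed N-cadherin, was at 0.11 and Pcdh9 at -0.09, and neither was called. Of 29 synaptic organisers 9 were higher and 13 lower. The C1q-related proteins went apart: C1ql2 was at 4.45 and C1ql3 at 0.39, while Cbln2 (-3.0), Cbln4 (-1.29) and Cbln1 (-0.96), the cerebellins that bind neurexins, were lower. The postsynaptic leucine-rich proteins Lrrtm1 (0.74) and Lrrtm4 (0.54) were higher, and Lrrtm3 (-1.82) and Lrrtm2 (-0.31) lower. The neurexin Nrxn2 was lower (-0.65), and Nrxn3 (-0.05) was not called.

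Growth factor genes were higher in hippocampus in 9 of 18 cases and lower in 5, with a median of 0.341. Ntf3, neurotrophin 3, ran from 5.65 to 15.7 in hippocampus and from 0.31 to 0.98 in frontal cortex (2.75, SE 0.18, adjusted p = 7.51e-11). Bdnf (0.84) was higher as well. Neurotrophin receptors differed: Ntrk3, the receptor of neurotrophin 3, was higher (0.6), and Ntrk2, that of BDNF, lower (-0.36). Fgfr1 ran from 135.0 to 162.0 against 36.6 to 52.4 (1.72, SE 0.0527, adjusted p = 8.27e-16), Fgf10 was at 1.39, Fgfr3 at -0.44, and Fgfr2 was not called (0.12). Of 25 Wnt pathway genes 5 were higher, 7 lower and 13 not called, near the 19.7% and 23.7% over all genes tested. Rspo1 (-2.34), Wnt9a (-1.94), Wnt4 (-1.38) and Wnt10a (-1.23) were lower, and Fzd7 was higher (0.8, adjusted p = 0.0221). Of 13 retinoid genes 4 were higher and 5 lower, against 19.7% and 23.7% over all genes tested. Among them were Cyp26b1, which breaks down retinoic acid (1.11), and Rxrg (-2.57) and Rarb (-1.12), retinoid receptors that striatal neurons also express. Of 17 zinc transport genes and metallothioneins 7 were higher and 3 lower, against the same shares over all genes tested. The importers Slc39a6 and Slc39a10 were at 1.16 and -1.14, the metallothioneins Mt1, Mt2 and Mt3 at 0.46, 0.51 and 0.5, and Slc30a3, which loads zinc into synaptic vesicles and is known for the mossy fibres, was lower in hippocampus (-0.88, adjusted p = 2.92e-07).

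Immediate early genes, which neurons induce when active, were lower in hippocampus in 11 of 18 cases and higher in 2, with a median of -0.654. Egr1 ran from 118.5 to 278.3 in hippocampus and from 246.1 to 536.2 in frontal cortex, with overlap (-1.09, SE 0.189, adjusted p = 0.000264). Egr2 (-1.27), Homer1 (-1.22), Dusp1 (-1.07), Egr4 (-0.89), Fos (-0.84) and Nr4a1 (-0.82) were lower. Arc (-0.75), Npas4 (-0.46) and Fosb (-0.58) were not called. Nr4a3, an orphan nuclear receptor, went the other way without overlap, with 154.3 to 281.4 against 35.8 to 70.9 (1.9, SE 0.139, adjusted p = 1.22e-08), and Jun was higher too (0.88). In the WT libraries alone 4 of the list were called lower and 2 higher.

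Of 22 calcium-binding and calmodulin-related genes 7 were higher and 12 lower. Hpca, hippocalcin, ran from 725.9 to 1427.9 in hippocampus with a median of 1117.1, and from 312.0 to 389.9 in frontal cortex with a median of 357.5 (1.65, SE 0.106, adjusted p = 4.71e-10). The calmodulin kinase genes split, with Camk2b (0.71) and Camk2a (0.45) higher and Camk2d (-1.23), Camk2g (-0.96) and Camk4 (-0.96) lower. Necab2 was higher (0.95) and Necab3 (-2.01) and Necab1 (-1.51) lower. Calb2, calretinin, was at 1.19 (adjusted p = 0.0201), with a highest value of 41.5 in hippocampus against a median of 9.41, and at 0.7 (adjusted p = 0.035) without WT hippocampus 2 and 3. Of 14 genes of glutamate and GABA handling 3 were higher, near the 19.7% over all genes tested, and 7 lower, against 23.7%. Slc17a7, the main vesicular glutamate transporter of both regions, was at -0.28, Slc17a6 at -1.18, and Slc17a8 at 0.61.

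In the lists for astrocytes, myelin, oligodendrocyte precursors, microglia, endothelium and pericytes, medians lay between -0.303 and 0.495. Of 15 astrocyte genes 7 were higher and 6 lower, with a median of 0.113; Gfap, the intermediate filament of fibrous and hippocampal astrocytes, ran from 173.7 to 254.1 in hippocampus and from 49.5 to 75.2 in frontal cortex (1.79, SE 0.081, adjusted p = 4.84e-13), Aqp4 was at 0.59 and Aldh1l1 at -0.53. The count of lower astrocyte genes was 3 without WT frontal cortex 1. Myelin genes had a median of 0.495 with 2 of 16 called higher, Opalin and Myrf. The count was 5 without KO hippocampus 4 and 7 without WT hippocampus 1. It was 0 without WT hippocampus 3 (median 0.347) and 0 without WT hippocampus 2 and 3 (median 0.213). In the KO libraries alone it was 0, with a median of 0.0534. The Opalin call (0.64, adjusted p = 0.0496) was lost on leaving out any of 12 single libraries (0.49 to 0.68) and the Myrf call (0.57, adjusted p = 0.0429) on leaving out any of 9 (0.45 to 0.59). Of 11 oligodendrocyte precursor genes 3 were higher, Bcas1 (0.52), Neu4 (0.4) and Vcan (0.28), and 5, 5 and 6 without KO frontal cortex 1, KO hippocampus 1 and WT hippocampus 1. In the KO libraries alone 0 were called higher, with a median of -0.0227. The count of precursor genes called lower was 1 without WT hippocampus 3 and 2 without WT hippocampus 2 and 3. Bcas1 was at 0.31 (adjusted p = 0.055) without WT hippocampus 2 and 3. Microglial genes were lower in 8 of 15 cases and higher in none, with a median of -0.216, among them Tmem119 (-0.37) and Fcrls (-0.36); 3 were called in the KO libraries alone and 0 in the WT libraries alone. Endothelial genes were lower in 7 of 11 cases and pericyte genes in 3 of 9, against 23.7% over all genes tested. Their medians were -0.303 and -0.228, and Cldn5 (-0.44), Abcb1a (-0.43) and Rgs5 (-0.36) were among the lower genes.

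Genes of tissue that borders the regions were read beside these results. Of 13 choroid plexus genes 3 were higher in hippocampus, near the 19.7% over all genes tested, with a median of 1.14. The call of one of them, Sostdc1, was lost on leaving out any of 5 single libraries (1.74 to 1.89, adjusted p 0.051 to 0.0585). Kl, the Klotho gene, ran from 17.8 to 340.1 with a median of 24.7, against 2.45 to 37.5 with a median of 4.22, and overlapped (2.38, adjusted p = 0.00952). Ttr, the most abundant choroid plexus transcript, was at 2.2 and not called. Of 5 ependymal genes tested 4 were higher, and the call of Rsph1 among them was lost on leaving out any of 10 single libraries (0.53 to 0.71). Of 12 meningeal genes 2 were higher, Fbln1 (0.84) and Bgn (0.47), no more than the share over all genes, with a median of 0.0425. At P60 none of the 12 was higher and 8 were lower, with a median of -0.672, against 17.5% lower over all genes tested at that age. Thalamic genes were higher in 4 and lower in 2 of 9 cases, the lower ones near the 23.7% over all genes tested. Prkcd, a protein kinase C gene, was at 2.23, and Rora, a nuclear receptor, at -1.3. No hypothalamic gene of 11 reached the level for a test. Red blood cell genes were not called (2 tested).

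Striatal genes made up the list with the lowest median, -2.36, with 13 of 14 lower in hippocampus. Penk ran from 13.6 to 24.6 against 38.7 to 236.7 (-2.71). Adora2a (-2.76), Drd1 (-2.74), Rgs9 (-2.4) and Ppp1r1b (-2.31) were lower. The frontal cortex libraries spread about these values together: the striatal sum was 304.5 in KO frontal cortex 2 and 483.3 in WT frontal cortex 3, and 1467.3 in WT frontal cortex 2. At P60 none of the list was called and its median was -0.567, with striatal sums of 1748.8 and 2784.7 in the hippocampal libraries numbered 1, against 333.5 to 1848.0 in frontal cortex. Without those 2 libraries 5 members were called lower and the median was -2.17. Drd1 was called there (-2.3, adjusted p = 0.0298), and Penk (-2.16, adjusted p = 0.073), Adora2a (-2.33, adjusted p = 0.0934) and Drd2 (-2.17, adjusted p = 0.157) were not. The part of striatal tissue in the P30 differences of these genes was not tested.

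Mitochondrially encoded and ribosomal protein genes were read as measures of the libraries. Of 15 mitochondrial genes 7 were higher in hippocampus, with a median of 0.202, and 2 without WT hippocampus 2 and 3; none was called at P60. Of 34 cytosolic ribosomal protein genes 24 were higher and none lower, with a median of 0.297, and 28 were higher at P60, with a median of 0.347. Rplp2 was at 0.72 and Rpl10 at 0.59. Many of these genes have near-identical pseudogenes, so their counts are uncertain.

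Of 248 named genes called at P30, 202 were called at P60, 44 were tested there and not called, and 3 had the opposite direction without a call: Pcp4 (0.05), mt-Co2 (-0.07) and mt-Atp8 (-0.01). Without the hippocampal libraries numbered 1, Pcp4 was at -0.28 at P60 (adjusted p = 0.192), the direction of P30. The 44 include Penk, Drd1, Drd2 and Adora2a of the striatal list. Foxp2 (-1.92, adjusted p = 0.112) and Meis2 (-1.68, adjusted p = 0.13) were also not called at P60, and were at -3.49 and -3.08 without those libraries. Meis2 ran from 13.2 to 284.2 in the P60 hippocampal libraries. For these genes the difference between the ages was not tested, since the tables were normalised separately.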

How the data were processed

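RNA of mouse brain was sequenced as stranded poly-A libraries in read pairs, per the labels' protocols. The authors deposited 1 table per age of normalised read counts, written with decimal commas, with a library scaling that is not stated; column totals were 945861 to 1039135 at P30. The submitters' processing notes list build mm9 and the packages DESeq, edgeR and limma without saying what each did. Which aligner, counter and annotation were used is not given in the sources used here. Of 48526 gene IDs, 48144 were found in GENCODE M21 (GRCm38), the source of the positions of genes printed here. Every value was a whole multiple of a step within 0.1 read (100.0%), which gave back reads: 2933026 to 8080536 per library at P30 and 5322181 to 7379353 at P60.

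Because the values are normalised, regions were compared with limma-trend (limma 3.58.1, R 4.3.3, robust variance) on log2(value + 1), with region and genotype as terms, over genes with 10 reads in at least 4 libraries (P30) or 2 (P60) and 15 in all. The region by genotype interaction was a separate term. Tests were made within a table. The fit was tested on simulated data. Groups came from the sample labels; beyond the mothers named in the series text nothing says how the libraries of a group are related, so p-values measure the spread between these libraries. Limits of precision from depth cover counting error only.

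The 47 gene lists (798 members, of which 42 were under the filter at P30) and the tests were chosen with earlier results of these data known. The text names, at P30, the 12 called genes with the largest difference in each direction that had a mean of at least 5 in the higher region and no overlap, leaving out unnamed gene models; from each list the largest called member in each direction and up to 2 further; for families every called member with a difference of at least 1; and always Mir146, Prox1, Zbtb20, Nr3c2 and Mef2c. Any other member is named from its values. Some genes that these rules take are not reported here. Promoters are from a RefSeq table (GRCm38.p6).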

Additional observations from a re-analysis of the deposited data

Results flagged for a closer look

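Of 212 groups of 4 libraries examined (26 summed lists and 28 genes with the largest differences), 16 held a library far from the other 3, by the ratio of its gap to the range of the group; chance gives about 1 in 20. Choroid plexus sums were high in WT hippocampus 3 (9990.0, others 273.6 to 490.9), KO hippocampus 4 (1852.6, others 250.3 to 351.0), KO frontal cortex 2 (1373.7, others 248.0 to 263.1) and WT frontal cortex 2 (658.5, others 237.3 to 278.9), and the meningeal sum was high in WT hippocampus 3 (785.5, others 161.9 to 227.8). The CA2 sum was high in KO hippocampus 3 (207.1, others 146.5 to 155.2), the CA1 sum in WT frontal cortex 2 (436.3, others 415.8 to 418.7), and the layer 6 sum was low in KO frontal cortex 4 (442.1, others 481.1 to 486.9).

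Among single genes, Dsp was high in KO frontal cortex 2 (3.61, others 0.24 to 0.51), Lhx9 in KO frontal cortex 1 (1.59, others 0.13 to 0.26) and C1ql2 in KO hippocampus 2 (66.6, others 40.2 to 44.5). Igfn1 was high in WT hippocampus 3 (5.13, others 0.0 to 0.3) and in KO hippocampus 4 (0.72, others at 0.0). Adam33 was high in WT frontal cortex 1 (20.1, others 10.6 to 11.8) and WT hippocampus 2 (0.89, others 0.0 to 0.15), and Col24a1 was low in KO hippocampus 3 (0.0, others 0.53 to 0.58), the library with the fewest reads.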

How the results depend on the processing

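The P30 count of 7962 called genes was 7934 with a pseudocount of 0.1, 7942 with 5, 8495 without the filter on reads, 7938 after rescaling by a trimmed mean of M-values, 8134 with the amygdala in the fit, 7912 with sex as a covariate, 6264 in the KO libraries alone, 3991 in the WT libraries alone and 7456 to 8524 on leaving out each library in turn. At P60 the 6316 became 2820 in the KO libraries alone, 2557 in the WT libraries alone and 4858 to 6694 on leaving out each library. The region by genotype count of 0 became 0 to 21. With a pseudocount of 5, 234 and 382 genes were at least 1 log2 unit higher and lower, against 488 and 772. The cause of these changes was not tested. Settings added once the values were known were voom on recovered reads (8052 at P30, 6166 at P60), P30 without WT hippocampus 2 and 3 (8195) and P60 without both hippocampal libraries numbered 1 (7107). The edgeR and DESeq2 alternatives planned at the start were not run, since the deposited values were not accepted as counts.

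Same-numbered libraries of both regions had correlations of their deviations of -0.11 to 0.247 at P30 (5 of 8 pairs above 0.1) and 0.024 to 0.283 at P60. Of the hippocampal libraries, 4 of 8 at P30 and 3 of 5 at P60 correlated best with their own number. Within a genotype, same-numbered libraries also had the same sex in both regions at each age. The main fit did not pair the samples by number, and these values do not settle whether a number marks the same mouse. With the replicate number as a block 7798 genes were called at P30, 5467 at P60 and 0 for the interaction. Over 248 named genes and 6689 comparisons at P30, 6574 kept direction and call, 115 lost the call and 0 reversed; 37 genes lost it in some setting, 5 of them when one library was left out. At P60, comparisons in which a gene not called in the main fit changed sign were left out of the count. Of the 5609 comparisons counted, 5306 kept both, 245 lost the call, 58 gained it and 0 reversed. That 0 therefore covers only genes called at P60 in the main fit. Depth limits genes with few reads: those in the lowest of 4 level groups had a median SE of 0.153, against 0.0604 in the highest.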

Other observations

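Xist, the RNA that silences an X chromosome in females, was compared only among the female libraries, since it was used to assign sex. Among male libraries its highest level was 11.6, in WT hippocampus 1 at P30. At P30 its level ran from 1778.6 to 2175.8 in the 4 female hippocampal libraries and from 1343.6 to 1455.4 in the 4 of the frontal cortex, without overlap. At P60 it ran from 2158.8 to 2230.4 in 2 female hippocampal libraries and from 1346.9 to 1556.2 in 3 of the frontal cortex. The amygdala libraries ran from 1404.8 to 1594.2 at P30 and from 1602.0 to 1749.3 at P60. This comparison was made after the values were seen, and no test was run.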
